A study of Nicotiana tabacum with 12 samples.

Results

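The genes carried by the mitochondrial genome of tobacco (Nicotiana tabacum) were followed in seedlings that switch on AmMIXTA. They were taken as all rows of the authors' tables of all genes whose identifier starts with NitaM, a choice that uses no measured value. There were 48 such genes among 45034 genes in all. The table of the 4 h samples held 42 of them and that of the 48 h samples 46, with 40 in both. RefSeq (assembly ASM71507v2) names all 48 and places them on the mitochondrial chromosome, for which it lists 183 entries, the others not analysed here.

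Mitochondria make most of the ATP of non-photosynthetic metabolism by passing electrons along respiratory complexes and letting protons flow back through the ATP synthase. Plant mitochondria keep a small genome for core subunits of these complexes, for factors that attach haem to cytochrome c, and for ribosomal RNA and some ribosomal proteins, while nearly all other mitochondrial proteins are encoded in the nucleus. In plant mitochondria a poly(A) tail is known to mark a transcript for decay, and the libraries used here were made from polyadenylated RNA, so the reads do not sample these transcripts as they sample nuclear messenger RNA.

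The seedlings were of the cultivar Petit Havana (SR1), grown from T2 seeds of stable transformants that carry AmMIXTA, which encodes a MYB-type regulator from snapdragon, under a promoter that β-estradiol turns on. The 4 groups were induced seedlings at 48 h, non-induced control seedlings at 48 h, induced seedlings at 4 h and control seedlings at 4 h, with 3 libraries each, and seedlings were 9 days old at 48 h and 7 days old at 4 h. Controls came from the same kind of seed, grown without the inducer. Each collection pooled the aerial parts of 15 seedlings, and the sources used here do not give the number of lines. The level of AmMIXTA itself was not analysed here. Seedlings that received β-estradiol without carrying the transgene were not analysed here, so effects of the agent and of AmMIXTA cannot be told apart, and neither can hours after induction and seedling age.

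The libraries held 12457701 to 30103266 recovered reads each, apart from the first control replicate of each time, with 1240033 at 48 h and 917871 at 4 h. They are called shallow here for this low recovered total alone, which takes the smallest step between values as 1 read. Even numbers made up 49.4% (48 h) and 46.0% (4 h) of their entries of 1 to 20 recovered reads, while elsewhere they made up 68.4% to 74.7%. Whether they were sequenced less or processed otherwise was not tested, so that their reads may not count the same thing as those of the others. In these libraries 37 of 46 mitochondrion-encoded genes at 48 h and 35 of 42 at 4 h had at most 20 reads. Zeros were nearly absent there, with 10 of the genes at exactly 1 read and 1 at 0 in the 48 h library, and 9 at exactly 1 read and 0 at 0 in the 4 h library. Control replicates 2 and 3 at 48 h held the same reads in 42659 of 42659 genes and were counted once, leaving n = 2 in that group. The labels do not say whether replicates came from separate cultures, so a p-value measures only how these samples spread, and that spread may be technical. The plastid genes psbA, rbcL, psaA, psaB and psbD, taken as markers of green tissue, had normalised values between 20.7 and 957 in all libraries. These values cannot test the tissue, because no library of another tissue was compared. No root marker could be matched by name.

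Mitochondrion-encoded genes took a small share of the recovered reads. At 4 h they held 0.165%, 0.195% and 0.172% of the reads in induced replicates 1, 2 and 3, against 0.224%, 0.230% and 0.202% in control replicates 1, 2 and 3. All induced libraries were below all control libraries, with means of 0.177 ± 0.016% and 0.219 ± 0.015% (SD, n = 3 each), a ratio of 0.81. The two-sided exact permutation test gave p = 0.1, the smallest value that 3 against 3 can give. In bulk tissue, less RNA per cell and fewer cells or organelles of a kind cannot be told apart.

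At 48 h the share was 0.273%, 0.216% and 0.239% in induced replicates 1, 2 and 3, against 0.183% in the shallow control library and 0.238% in the other. The groups overlapped, with means of 0.242 ± 0.029% (n = 3) and 0.211 ± 0.039% (n = 2), and the exact permutation p was 0.4 where 0.2 is the smallest possible. The 48 h libraries of induced seedlings all lay above the 4 h libraries of induced seedlings, 1.37 times higher on average (exact permutation p = 0.1, the smallest possible). In control seedlings the share at 48 h was 0.962 times that at 4 h and the times overlapped (exact permutation p = 0.8).

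The plastid genome, the other organelle genome in the same libraries, was set beside it with its 68 genes. At 4 h it held 5.31 ± 0.66% of the reads in induced and 6.99 ± 0.42% in control seedlings (SD, n = 3 each), again with no overlap (ratio 0.759, exact permutation p = 0.1, the smallest possible). In induced seedlings its share was 1.36 times higher at 48 h than at 4 h, also without overlap. The log2 ratio of mitochondrion-encoded to plastid-encoded reads was -4.90 ± 0.31 in induced and -5.00 ± 0.064 in control seedlings at 4 h (exact permutation p = 0.8, n = 3 each), and the groups overlapped. At 48 h it was -4.89 ± 0.063 in induced (n = 3) and -4.91 ± 0.12 in control seedlings (n = 2), with an exact permutation p of 1. The smallest p possible was 0.1 at 4 h and 0.2 at 48 h, so no difference of any size could have passed.

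**Figure D1:**
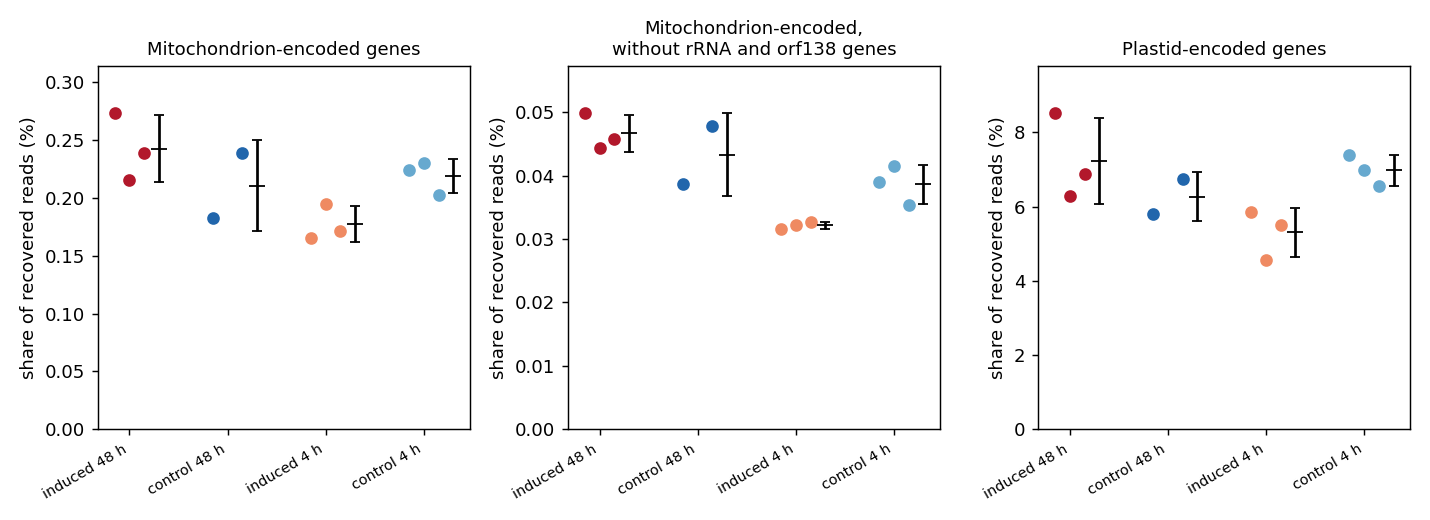
Share of recovered reads (%) per library for mitochondrion-encoded genes, for the same without ribosomal RNA and orf138 genes, and for plastid-encoded genes; dots are libraries in replicate order and bars are means ± SD in each of the 4 groups. In each panel the 3 induced 4 h libraries lie below the 3 control 4 h libraries and below the 3 induced 48 h libraries, while the 48 h groups overlap.

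These shares leave out 4 nuclear genes at 4 h and 14 at 48 h whose entries were inflated in single libraries and held up to 69.3% of a library's reads. None of the mitochondrion-encoded genes was among them. With those genes kept in the total, the induced minus control difference in share was 0.0211 percentage points at 4 h in place of -0.0416 and -0.00533 at 48 h in place of 0.0319, and the 48 h minus 4 h difference in induced seedlings was -0.0569 in place of 0.0653. These 3 directions therefore depend on leaving those entries out.

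Ribosomal RNA made up most of the mitochondrion-encoded reads, between 72.0% and 75.4% in each library. It came from rrn18, the RNA of the small ribosomal subunit, and from a pair of rows for rrn26, the RNA of the large subunit, with rrn5 at values under 1. The pair of rrn26 rows had nearly equal reads in each library, as did orf138b and orf138c, open reading frames that overlap one rrn26 copy each in the RefSeq order. How reads shared by copies or overlapping genes were counted is not given in the sources used here, so their split is uncertain. The orf138 genes held 6.01% to 10.6% and nad2, a subunit gene of complex I, 7.54% to 9.19% of the mitochondrion-encoded reads. All other genes share what remains.

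Leaving out ribosomal RNA and the orf138 genes left 6209 to 10846 reads per library, and 479 and 358 in the shallow libraries at 48 h and 4 h. Their share of all recovered reads was 0.0316%, 0.0322% and 0.0326% in induced libraries at 4 h, against 0.0390%, 0.0415% and 0.0353% in control libraries at 4 h. The induced libraries were again all lower, at a ratio of 0.832, and nearly equal to each other. At 48 h the induced libraries held 0.0498%, 0.0443% and 0.0458%, 1.45 times the mean at 4 h without overlap, against 0.0386% and 0.0479% in control libraries at 48 h, which overlapped with them. Without rrn18, the gene with the most reads, the induced over control ratio of the whole share at 4 h was 0.797.

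**Figure D2:**
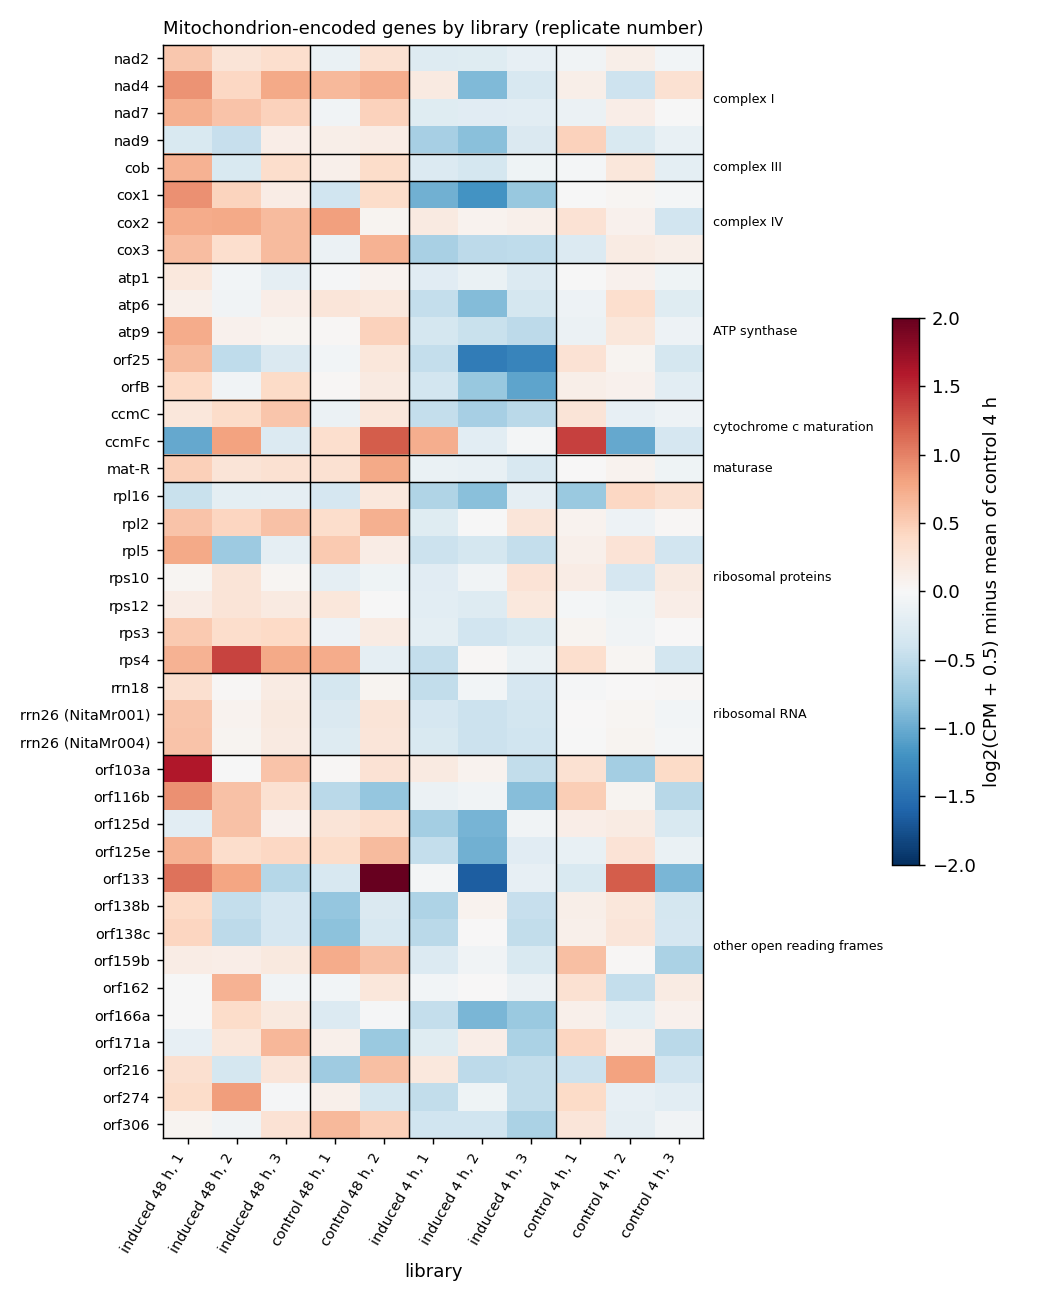
Level of each of the 40 mitochondrion-encoded genes present at both times, as log2(CPM + 0.5) minus the mean of the control 4 h libraries, by library (columns, with replicate number) and by role (rows). The induced 4 h columns are mostly blue and the induced 48 h columns mostly red, while orf133 runs from 0.963 to 18.8 CPM over the libraries.

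The effect of induction at 4 h was tested gene by gene by limma on log2(normalised value + 0.5), where a normalised value is the authors' read count divided by a factor of each library. Of the 42 genes in that table, 29 passed the filter of a value of at least 1 in 3 libraries. None rose and 1 fell at an adjusted p under 0.05, against 0.352% of all genes called in either direction, 0.0967% higher and 0.255% lower. The log2 fold change was negative for 27 of the 29, against 46% of all genes, with a median of -0.32 against 0.02 for all genes tested. Groups did not overlap, with all induced libraries lower, for 15 of the 29 genes, against 4.95% of all genes, and with all induced libraries higher for 0, against 5.45%.

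The gene that fell was cox1 (NitaMp049), the catalytic subunit of cytochrome c oxidase, which hands electrons to oxygen as complex IV. Its normalised value was 2.03, 1.69 and 2.40 in induced replicates 1, 2 and 3, against 4.18, 4.45 and 4.19 in control replicates 1, 2 and 3. Every induced library lay well below every control library. The log2 fold change was -0.92 (adjusted p = 0.00758 by limma, SE 0.17). The value of control replicate 1 rests on 6 reads (exact Poisson 95% interval 2.20 to 13.1, counting error only), against 79 to 163 reads in the other libraries. Without that library the log2 fold change was -0.93 and the call was lost (adjusted p = 0.0662), as it was with DESeq2 on the recovered reads (adjusted p = 0.175), and over all alternatives the adjusted p ran between 0.000435 and 0.175.

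The other subunits of complex IV were not called. For cox3 the values were 3.18, 3.52 and 3.57 in induced replicates, against 4.18, 5.86 and 5.65 in control replicates. These groups were apart, yet the log2 fold change of -0.54 was not called (adjusted p = 0.292 by limma, SE 0.16). For cox2 they were 3.27, 3.01 and 3.09 in induced replicates and 3.48, 3.06 and 2.11 in control replicates, overlapping, with a log2 fold change of 0.12 (SE 0.18). A difference of cox2 from the other 2 was not tested.

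Of the 4 tested genes of the ATP synthase, the enzyme that makes ATP from the proton gradient, none was called and all had lower means in induced seedlings. The values of atp1, its α subunit, were 33.5, 35.7 and 32.4 in induced and 38.3, 41.8 and 37.2 in control replicates, apart but close, with a log2 fold change of -0.20. The values of orfB, an older name of atp8, were 1.94, 1.41 and 1.08 in induced and 2.79, 2.80 and 2.21 in control replicates, with a log2 fold change of -0.67 (adjusted p = 0.339 by limma, SE 0.20). The proton channel genes atp6 and atp9 had log2 fold changes of -0.52 and -0.41, also with no overlap. The gene orf25, an older name of atp4, did not pass the filter, at 0.693, 0.214 and 0.240 in induced and 1.39, 1.16 and 0.796 in control replicates, the first of which is 2 reads.

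Complex I takes electrons from NADH, and 4 of the 9 nad names of the RefSeq mitochondrial entries were in these tables. The values of nad2 were 96.6, 97.8 and 103 in induced and 108, 126 and 112 in control replicates, and those of nad7 were 13.1, 13.2 and 13.4 in induced and 13.9, 17.1 and 15.4 in control replicates. Both pairs of groups were apart by a narrow gap, with log2 fold changes of -0.22 and -0.21. The values of nad4 overlapped (log2 fold change -0.32) and nad9 did not pass the filter. The 1 gene of complex III, cob for cytochrome b, overlapped too (-0.22).

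Among the remaining roles, ccmC, which helps to carry haem to cytochrome c, had a log2 fold change of -0.52 with no overlap between groups. The maturase gene mat-R, whose product helps to splice group II introns, had -0.19, also with no overlap. Of 5 tested ribosomal protein genes, rps3 had -0.29 with no overlap, rps10 and rpl2 were at 0.00 and 0.01, and rps12 and rpl16 overlapped at -0.07 and -0.49. Both rrn26 rows were at 206 to 227 in induced and 268 to 292 in control libraries, with log2 fold changes of -0.36 and -0.37, while rrn18 overlapped at -0.29, with induced replicate 2 and control replicate 1 both at 498. All 8 tested open reading frames of other names had negative log2 fold changes between -0.65 and -0.05, and the largest was that of orf166a, at 1.79, 1.24 and 1.44 in induced and 2.79, 2.26 and 2.83 in control replicates (adjusted p = 0.302 by limma). The gene orf133 had a log2 fold change of -0.57 with an SE of 0.74, and control replicate 2 stood at 6.77 while the other 5 libraries lay between 0.641 and 2.63.

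**Figure D3:**
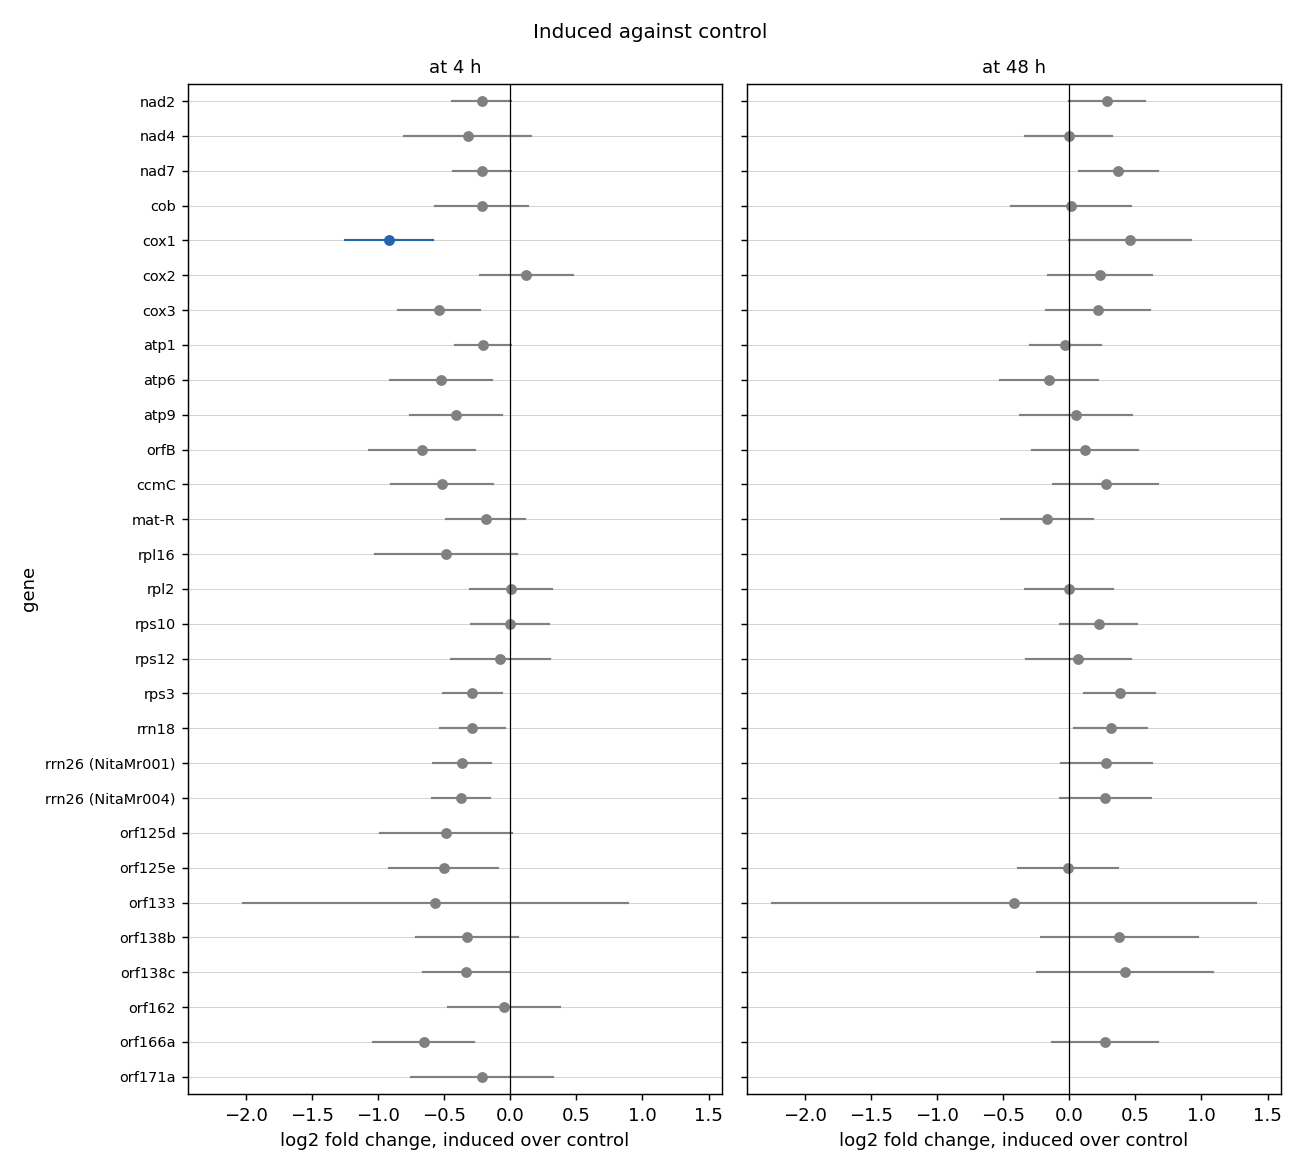
Log2 fold change of induced over control with its 95% interval for each gene tested at 4 h (left) and at 48 h (right), by limma. At 4 h 27 of 29 dots lie below 0 and cox1, in blue, is the gene called; at 48 h 18 of 25 lie above 0 and none is called.

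At 48 h none of the 25 genes that passed the filter, of 46 in the table, was called in either direction by limma, against 0.0127% of all genes, 3 higher (0.0095%) and 1 lower (0.00317%), or 3 and 3 with recovered reads scaled by library total. There were 3 genes with an unadjusted p under 0.05, namely rps3, nad7 and rrn18, against 1862 of all 31565 genes tested. The tools edgeR, DESeq2 and voom called 0 of the 25. The log2 fold change was positive for 18 of the 25, against 54.3% of all genes, with a median of 0.22 against 0.02 for all genes. Groups were apart with induced libraries higher for 3 genes, against 12.5% of all genes, and lower for 1, against 8.92% of all genes.

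The smallest p was that of rps3, a protein of the small ribosomal subunit, at 10.5, 9.27 and 9.59 in induced replicates, against 6.71 in the shallow control library and 8.13 in the other. Its log2 fold change was 0.38 (adjusted p = 0.634 by limma, SE 0.14). For cox1 the values were 4.44, 3.15 and 2.55 in induced replicates, against 1.68 in the shallow control library and 3.01 in the other, an overlap, with a log2 fold change of 0.46 (adjusted p = 0.896 by limma, SE 0.24). Without the shallow library, in which cox1 again rests on 6 reads, that value was 0.12. The genes rps10 and orf166a lay higher without overlap at 0.22 and 0.27, and atp6 lower at -0.15. For orf166a the gap was very narrow, with 1.377 in the lowest induced library against 1.372 in the highest control library. In complexes I, III and IV and the ATP synthase, the log2 fold changes of the other tested genes lay between -0.03, in atp1, and 0.37, in nad7. The values of orf133 overlapped widely, with a log2 fold change of -0.42 (SE 0.93).

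When libraries were paired by number, the count of called genes at 48 h depended on which number the repeated control library was given. With it as number 2, 4 mitochondrion-encoded genes were called higher, both rrn26 rows at 0.38, orf138b at 0.55 and orf138c at 0.61 (adjusted p = 0.0308, 0.0351, 0.000127 and 8.3e-06 by limma). With it as number 3, 0 of them were called. The repeated library deviated more like the induced library of number 3 (correlation 0.593) than like that of number 2 (0.143). Either fit rests on 2 pairs, as the remaining induced library has no partner, so little is left to estimate the spread. Of all 31565 genes tested, these fits called 646 (430 higher) and 429 (273 higher), against 4 unpaired. Unpaired, the log2 fold changes of orf138b and orf138c were 0.38 and 0.42 (adjusted p = 0.953 and 0.954 by limma). The orf138b values were 44.7, 24.2 and 26.8 in induced replicates, against 19.9 in the shallow control library and 27.8 in the other, so that induced replicate 1 alone stood out. The values of orf138c nearly repeated those of orf138b.

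At 48 h 1 mitochondrion-encoded gene, the open reading frame orf116b (NitaMp140), is listed as higher in the authors' deposited table, at a ratio of 3.58 and an unadjusted p of 0.00848. That ratio takes the repeated library as 2 samples in the control mean. The reads behind it were 34, 36 and 42 in induced replicates, against 1 in the shallow control library and 8 in the other. Induced libraries were all higher. The gene did not pass the filter on low values, and without any filter its log2 fold change was 0.83 (adjusted p = 0.4 by limma, SE 0.23). At 4 h the gene overlapped between groups, with 34, 40 and 12 reads in induced and 2, 30 and 20 in control replicates.

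Whether the effect of induction differed between times was tested in 1 limma fit over all groups on log2(CPM + 0.5), with CPM made from the recovered reads and scaled by TMM, for the 40 genes present at both times. The effect at 48 h minus that at 4 h was positive for 38 of 40 genes, against 50.2% of all genes, with a median of 0.51 against 0.00 for all genes. It was called for 1 gene, higher, against 0.16% of all genes in either direction, 44 higher (0.107%) and 22 lower (0.0533%), or 23 and 25 with scaling by library total. That gene was cox1, with a difference of 1.49 (adjusted p = 0.0492 by limma, SE 0.31). It lies just inside the threshold, the call was lost under 13 of 19 alternatives, and the adjusted p ran between 0.00959, with libraries paired by number within each time, and 0.232, without the shallow control library at 48 h, where the difference was 1.10.

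The largest difference in size was that of orf116b at 1.60 (adjusted p = 0.328 by limma, SE 0.47), followed after cox1 by ccmFc at -1.10 (SE 0.88), orf166a at 1.04 (adjusted p = 0.333 by limma, SE 0.31) and orf25 at 0.92 (SE 0.50). None of these 4 was called. For rps3 the difference was 0.70 (adjusted p = 0.175 by limma, SE 0.17). For the 3 complex IV genes it was 1.49, 0.15 and 0.80 in cox1, cox2 and cox3, and for the 4 complex I genes it lay between 0.25 and 0.61.

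The change with time was then taken within induced seedlings, from the same fit and with the same induced 4 h libraries as the comparisons above. Of the 40 genes, 21 rose at 48 h against 4 h and none fell by limma at an adjusted p under 0.05, against 8.47% of all genes called higher and 8.89% called lower (17.4% in either direction). The log2 fold change was positive for 39 of 40, against 48.6% of all genes, with a median of 0.61 against -0.01, and 23 of 40 did not overlap with 48 h higher, against 16% of all genes, and 0 with 48 h lower, against 17.1%. Over all genes 3495 were higher and 3670 lower. Scaling by library total moved the median of all genes to -0.13 and the split to 2372 higher and 5932 lower. With that scaling 15 mitochondrion-encoded genes were called higher, and the median of those tested was 0.49. With edgeR 23 of the 40 were called higher, against 4724 higher and 4096 lower of all 41261 genes tested.

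All 3 complex IV genes rose. The CPM of cox1 was 12.6, 8.94 and 7.23 in induced replicates at 48 h, against 3.06, 2.54 and 3.60 in induced replicates at 4 h, with every 48 h library above every 4 h library. Its log2 fold change was 1.48 (adjusted p = 1.35e-05 by limma, SE 0.21). The CPM of cox3 was 12.3, 9.96 and 12.4 at 48 h, against 4.79, 5.30 and 5.36 at 4 h, a log2 fold change of 1.09 (adjusted p = 0.000115 by limma, SE 0.18). That of cox2 was 7.45, 7.60 and 6.88 at 48 h, against 4.93, 4.53 and 4.64 at 4 h, a log2 fold change of 0.59 (adjusted p = 0.0464 by limma, SE 0.20), and its call was lost under 8 of 18 alternatives.

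Of the complex I genes 3 of 4 rose. The CPM of nad2 was 252, 209 and 220 in induced replicates at 48 h, against 146, 147 and 155 at 4 h, a log2 fold change of 0.60 (adjusted p = 0.000658 by limma, SE 0.12). That of nad7 was 38.6, 34.9 and 32.4 at 48 h, against 19.7, 19.8 and 20.2 at 4 h, a log2 fold change of 0.81 (adjusted p = 5.14e-05 by limma, SE 0.13). The 4 h libraries were nearly level and the 48 h libraries stood clear of them in both genes. The nad4 log2 fold change was 1.03 (adjusted p = 0.00496 by limma, SE 0.23) and that of nad9 0.38 (SE 0.30), not called. Cytochrome b (cob) had 0.48 and was not called, with induced replicate 2 at 48 h at 3.45 CPM, within the 4 h libraries.

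Of the ATP synthase genes 4 of 5 rose, orf25 by 1.01, orfB by 0.96, atp9 by 0.73 and atp6 by 0.61 on the log2 scale. The fifth, atp1, was at 68.6, 56.9 and 52.1 CPM in induced replicates at 48 h, against 50.5, 53.7 and 48.6 at 4 h. It overlapped, with a log2 fold change of 0.21 (adjusted p = 0.235 by limma, SE 0.11). The calls of orf25 and atp6 were lost under 4 and 5 of 18 alternatives, among them the fits without induced replicate 1 at 48 h, where orf25 was at 0.69 and atp6 at 0.61.

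For haem attachment, ccmC rose by 0.95 (adjusted p = 0.00194 by limma), with 4.17, 4.66 and 5.41 CPM in induced replicates at 48 h, against 2.38, 2.02 and 2.25 at 4 h. Its partner ccmFc had the one negative value of the 40, -0.33 (SE 0.59), with 0, 1.28 and 0.346 CPM at 48 h, against 1.19, 0.385 and 0.495 at 4 h. These rest on 0 to 33 reads per library and overlapped. The maturase gene mat-R rose by 0.55.

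Ribosomal protein genes were divided, with 3 of 7 called higher. The genes rps4, rps3 and rpl2 rose by 1.13, 0.72 and 0.53 on the log2 scale, rps4 on a low level of 1.51, 2.68 and 1.60 CPM at 48 h, against 0.396, 0.770 and 0.630 CPM at 4 h. The log2 fold changes of rps10, rps12, rpl16 and rpl5 lay between 0.12 and 0.37 and were not called. Ribosomal RNA rose in all 3 tested rows, rrn18 by 0.46 and the rrn26 rows by 0.64 and 0.65. Of 14 open reading frames of other names 3 were called higher, orf125e at 1.04, orf116b at 0.94 and orf166a at 0.89, and the largest, orf133 at 1.05, was not called (SE 0.88).

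Near the threshold, cox2 and orf116b were just inside (adjusted p = 0.0464 and 0.039 by limma). The nearest genes outside, further off, were orf125d and orf274 (adjusted p = 0.0834 and 0.141 by limma). Of the 21 calls, 12 held under all 18 alternatives run, namely those of cox1, cox3, nad2, nad4, nad7, orfB, ccmC, rps3, orf125e, orf166a and both rrn26 rows. In the plastid genome 22 of 67 genes were called higher and 3 lower in the same contrast, with a median log2 fold change of 0.35.

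**Figure D4:**
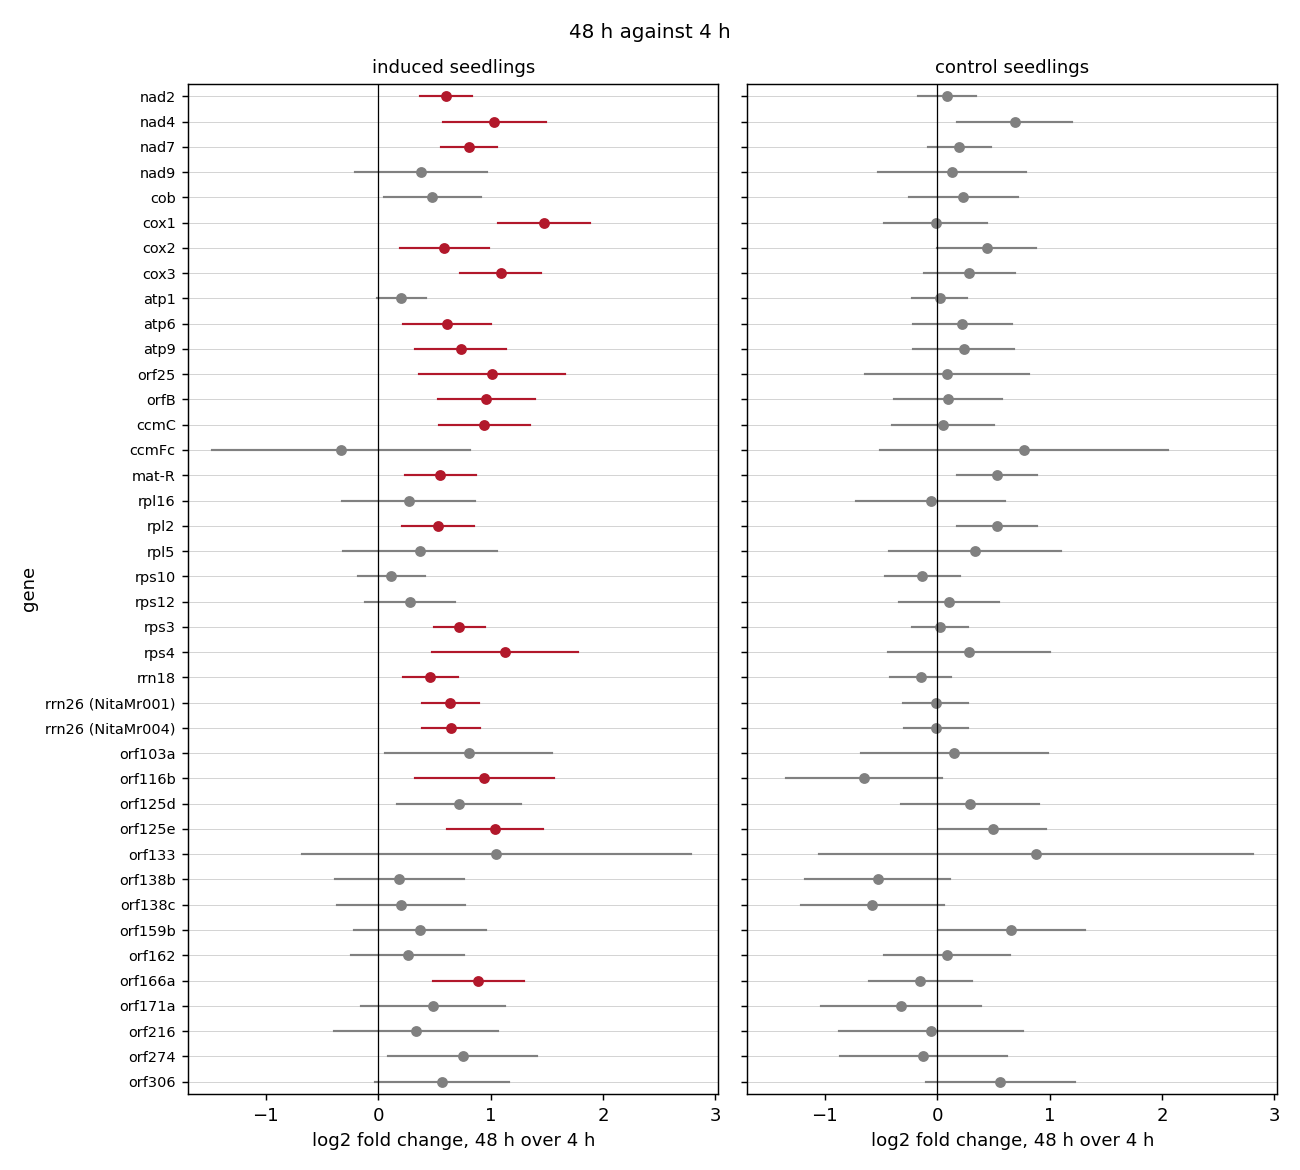
Log2 fold change of 48 h over 4 h with its 95% interval for the 40 genes present at both times, in induced (left) and control seedlings (right), by limma. Red dots are the 21 genes called higher in induced seedlings, among them cox1 at 1.48, while none is called in control seedlings.

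In control seedlings none of the 40 genes was called between 48 h and 4 h by limma. Of all genes 12.2% were called in either direction, 5.68% higher and 6.5% lower. An unadjusted p under 0.05 was met by 3 of the 40, against 10014 of all 41261 genes. The median was 0.10 and 27 of 40 log2 fold changes were positive, against 48.8% of all genes. Groups were apart with 48 h higher for 6 genes, against 18.6% of all genes, and lower for 0, against 21% of all genes. The 3 genes with an unadjusted p under 0.05 were mat-R at 0.53 (adjusted p = 0.0544 by limma), rpl2 at 0.53 (adjusted p = 0.0589 by limma) and nad4 at 0.69 (adjusted p = 0.104 by limma). The largest values were those of orf133 at 0.88 (SE 0.99), ccmFc at 0.78 (SE 0.65), nad4, orf159b at 0.66 (SE 0.33) and orf116b at -0.65 (SE 0.35), none called. The number of calls was 2 with edgeR, both higher, against 2399 higher and 2170 lower of all 41261 genes tested. With libraries paired by number across times and the repeated library as number 3 it was 1, against 5467 of all genes. That gene was nad4 at 0.86 (adjusted p = 0.00225 by limma). With the repeated library as number 2 the number was 0, against 5303 of all genes. The change over time in induced minus that in control seedlings is the same quantity as the difference in induction effects above and was called for cox1 alone of the 40.

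The cox1 levels over the groups show where these contrasts meet. Its CPM was 9.59 ± 2.74 in induced seedlings at 48 h (SD, n = 3), 6.64 ± 2.65 in control seedlings at 48 h (n = 2), 3.07 ± 0.53 in induced seedlings at 4 h (n = 3) and 6.46 ± 0.19 in control seedlings at 4 h (n = 3). The induced 4 h libraries were below all the others, and the 48 h groups overlapped. For orf133, in contrast, the 11 libraries ranged from 0.963 to 18.8 CPM, and the groups overlapped.

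**Figure D5:**
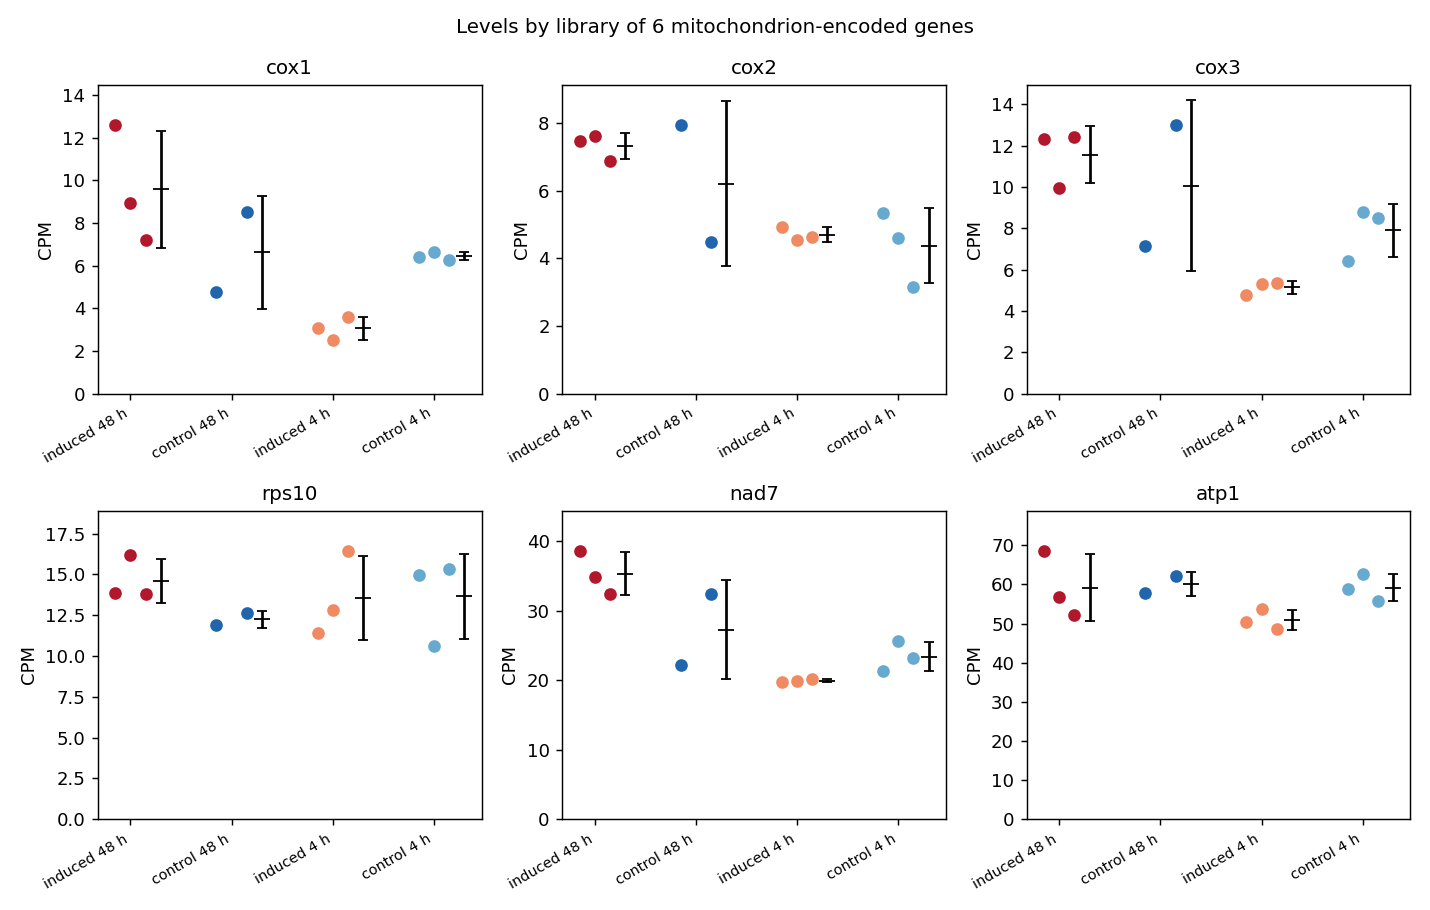
CPM by library for 6 mitochondrion-encoded genes in the 4 groups, with dots in replicate order and bars for mean ± SD; control 48 h has 2 libraries. The induced 4 h libraries of cox1 lie between 2.54 and 3.60 CPM, below all other libraries, while rps10, the next entry to cox1, overlaps across the groups.

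The values of genes that lie next to each other can be set side by side. In the RefSeq order cox1 is followed by rps10, and the CPM of rps10 was 13.8, 16.2 and 13.8 in induced replicates at 48 h, against 11.4, 12.8 and 16.4 at 4 h, which overlap, with a log2 fold change of 0.12 (SE 0.15) beside 1.48 for cox1. A test of the difference between both genes was not made. The genes orfB, cox3 and orf125e are consecutive entries, cox3 and orf125e overlap, and all 3 were called higher in induced seedlings at 48 h against 4 h, at 0.96, 1.09 and 1.04. The rps3 and rpl16 entries overlap too, at 0.72 and 0.27, of which rps3 was called. Reads from overlapping genes cannot be told apart here without the strand and the counting rule.

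Per 1000 mitochondrion-encoded reads, which sets aside the share of the whole genome, cox1 had 4.17, 3.94 and 2.95 reads in induced replicates at 48 h, 2.65 and 3.47 in control replicates at 48 h, 1.83, 1.35 and 2.08 in induced replicates at 4 h, and 2.92, 2.91 and 2.96 in control replicates at 4 h. The induced 4 h libraries thus remained below all others on this scale. Control replicate 1 of each time rests on 6 reads of cox1 (exact Poisson 95% interval 2.20 to 13.1 reads). Ribosomal RNA makes up 72.0% to 75.4% of the reads on which the scale is based. For atp1 the same scale gave 22.7, 25.1 and 21.3 in induced replicates at 48 h and 30.2, 28.5 and 28.1 in induced replicates at 4 h, with 48 h lower in all libraries, while its CPM overlapped.

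Genes with few reads make up the rest. At 4 h 13 of 42 and at 48 h 21 of 46 genes did not pass the filter. The genes rps19 and rrn5 were in the 4 h table alone, with values of 0.235 to 0.690 and 0.120 to 0.299 in induced libraries, against 0.257 to 1.10 and 0 to 0.697 in control libraries. Those in the 48 h table alone were orf121a, orf108, orf116, orf214, orf160 and orf166b, all open reading frames with values under 1. No transfer RNA gene was in either table, of 23 mitochondrial transfer RNA entries in RefSeq.

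Nuclear genes with mitochondrial names in the files were looked at beside these, and there were 16. All were named in the authors' deposited tables of higher genes, made from these same libraries. Neither their direction nor their counts beside the shares of all genes are therefore independent evidence, also over time. By limma 0 of 15 tested were called at 4 h, against 0.352% of all genes. The smallest p there was that of ubiquinol oxidase 2 (LOC107781761), an alternative oxidase that bypasses complexes III and IV. Its log2 fold change was 0.58 (unadjusted p = 0.00241, adjusted p = 0.288 by limma). Next was a pentatricopeptide repeat protein (LOC107761821) at 0.56 (unadjusted p = 0.00918, adjusted p = 0.548 by limma). At 48 h 0 of 9 tested were called, against 0.0127% of all genes. The smallest p there was that of APO protein 3 (LOC107779914) at -0.87 (unadjusted p = 0.00143 by limma). Next was a division factor of peroxisomes and mitochondria (LOC107816865) at 0.64 (unadjusted p = 0.00247 by limma). In induced seedlings 1 of 15 tested rose at 48 h against 4 h and 3 fell, against 8.47% of all genes called higher and 8.89% lower. The one that rose was a subunit of 2-oxoisovalerate dehydrogenase (LOC107800508) by 1.04 on the log2 scale. Those that fell were the division factor at -1.02, LOC107761821 at -0.73 and an aminopyrimidine aminohydrolase (LOC107762103) at -0.87. In control seedlings 2 of 15 tested rose and 3 fell, against 5.68% of all genes called higher and 6.5% lower. APO protein 3 rose by 1.19 and ubiquinol oxidase 2 by 0.67, and those that fell were the division factor at -1.68, LOC107762103 at -1.25 and an ornithine aminotransferase (LOC107805723) at -0.88 (adjusted p below the threshold by limma for each).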

How the data were processed

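Polyadenylated RNA of 12 samples was sequenced as paired ends of 150 bp per the labels' protocols, with 1 table of all genes for each time. The deposited per-library signal is a whole number of reads over a factor that belongs to the library, as found from the values, and each time was scaled separately by the authors. The deposited ratio is the mean of induced over that of control columns, and the deposited p-value is unadjusted. The submitters' processing notes name edgeR without a version. The sources used here give no aligner, counter, build or annotation, and 12 further per-sample columns were not used.

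Dividing by each step gave whole reads for 100% of values (tolerance 0.01). Genes with an entry above 5000 and over 20-fold their median were left out (4 at 4 h, 14 at 48 h). Each time was fitted by limma (trend, robust) on log2(value + 0.5), so folds of low genes are understated, for 37238 and 31565 genes at 4 h and 48 h. Contrasts across times used 41261 genes on log2(CPM + 0.5), CPM from TMM-scaled recovered reads with at least 1 in 3 libraries. Adjustment was by Benjamini-Hochberg over all genes tested, with calls at 0.05. One read was worth 0.697 and 0.28 in control replicate 1 at 4 h and 48 h and 0.0152 to 0.0322 elsewhere. Poisson intervals of read counts cover counting error only. The intervals drawn around log2 fold changes come from the limma SE and so reflect the spread between libraries. The fits were also run on simulated data drawn without paired libraries or inflated entries, and no result here rests on that simulation. Versions were DESeq2 1.42.0, edgeR 4.0.16 and limma 3.58.1 in R 4.3.3. As alternatives, edgeR and DESeq2 were run on the recovered reads.

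Libraries carry a number in the description besides the replicate number of the title. At 4 h the deviations of same-numbered libraries from their group means had correlations of 0.231, 0.277 and 0.219 over 10952 genes, other pairings at -0.244 to 0.0693, so the numbers were taken to pair samples. At 48 h 2 pairs remain, and over 5204 genes the pair of number 4 was at 0.638. The repeated control library was at 0.593 with the induced library of number 3 and at 0.143 with that of number 2. The 2 distinct controls there deviate as mirror images. Alternatives were other pseudocounts, filters, scalings, tools, blocks by either number and leaving out each replicate.

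Named genes are all called genes, the 5 largest changes per comparison, the 10 genes with the highest means, the genes of complexes I, III, IV and ATP synthase, and others where a group or a count is described. Genes and lists were chosen with earlier results of these data known. Gene names came from the RefSeq table of ASM71507v2, whose start and end coordinates gave the order and the overlaps of neighbours. Levels were not compared between genes because no lengths were used.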

Additional observations from a re-analysis of the deposited data

Results flagged for a closer look

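By a test of the difference itself, the effect of induction on cox1 differed between times in the main fit, just inside the threshold. At 48 h minus 4 h the difference was 1.49 on the log2 scale (SE 0.31, adjusted p = 0.0492 by limma). The call was lost under most alternatives, among them edgeR (adjusted p = 0.166) and leaving out any single 4 h library (adjusted p = 0.0645 to 0.158 by limma). Induced libraries were lower than control libraries without overlap at 4 h and overlapped with them at 48 h. The first control replicates, of low recovered total, rest on 6 reads of cox1 each, and without the one of 48 h the difference was 1.10 (adjusted p = 0.232 by limma).

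In the authors' normalised values and in CPM, 2 other genes had all induced libraries below all control libraries at 4 h and above them at 48 h. For rps3 the difference in effect was 0.70 (adjusted p = 0.175 by limma), with 16.7 ± 1.10 CPM in induced against 20.6 ± 0.892 CPM in control seedlings at 4 h, and 27.8 ± 1.81 against 21.0 ± 2.80 CPM at 48 h. For orf166a it was 1.04 (adjusted p = 0.333 by limma). Its groups at 48 h were barely apart, at 3.90 CPM in the lowest induced against 3.88 CPM in the highest control library. In CPM alone nad7 did the same, with a difference of 0.61 (adjusted p = 0.378 by limma), at 19.7, 19.8 and 20.2 CPM in induced against 21.4, 25.6 and 23.1 CPM in control replicates at 4 h, and at 38.6, 34.9 and 32.4 against 22.2 and 32.3 CPM at 48 h. None of the 3 passed the test of the difference.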

How the results depend on the processing

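The 23 calls of mitochondrion-encoded genes met 416 alternatives, of which 363 kept direction and call, 53 lost the call and 0 changed direction; the cause was not tested. The 21 calls over time in induced seedlings lost theirs in 36 of 378.

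Counts moved as follows. At 48 h limma called 4 of all genes, and 10 with both times in 1 fit, 13 with DESeq2, 2 with edgeR, 2 with edgeR without control replicate 1 (added after seeing the data), 11 with a pseudocount of 1, 0 with voom (2710 at an unadjusted p under 0.05) and 3 to 61 without single replicates. At 4 h it called 131, and 52 with both times in 1 fit, 78 with edgeR without control replicate 1, 65 with voom and 85 to 156 without single replicates; the call of cox1, 1 gene, became 0 with both times in 1 fit, DESeq2, and edgeR without control replicate 1, and 0 to 1 without single replicates. The difference between effects was called for 66 genes, and 19 to 94 without single replicates; its 1 mitochondrion-encoded gene became 0 with edgeR, with a pseudocount of 0.1 or 1 and with scaling by library total, and 0 to 1 without single replicates. Over time in control seedlings 5025 genes became 2243 to 5264 without single replicates, and 0 mitochondrion-encoded genes became 2 with edgeR and 0 to 3 without single replicates.

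With the replicate block by library number, calls over all genes became 376 at 4 h and 343 for the difference between effects, and 646 or 429 at 48 h with the repeated library as number 2 or 3, of which 4 or 0 were mitochondrion-encoded. The block by title number gave 242 at 4 h, and 148 or 1 at 48 h. For the share at 4 h the mean difference within the 3 pairs, -0.0416 percentage points, equals that of the group means by arithmetic, and its exact p of 0.25 is the smallest possible. The cox1 effect at 4 h was called under either block. For the contrasts over time a block within times cannot be estimated. With the block by library number across times (added after seeing the data; repeated library as number 2 or 3) the difference between effects was called for 201 or 132 genes, cox1 among them, and 21 mitochondrion-encoded genes were called over time in induced seedlings and 0 or 1 in control seedlings.

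With inflated genes kept in the total, differences in share turned to 0.0211 (4 h), -0.00533 (48 h) and -0.0569 percentage points (induced seedlings over time), without rrn18 to 0.0123 and -0.00465 (4 h, 48 h), without ribosomal RNA and orf138 genes to 0.00465, -0.00292 and -0.00890, and for the plastid genome to 0.311, -0.320 and -1.77. Without single replicates the share in control seedlings over time ran from -0.0361 to 0.0195, that without ribosomal RNA and orf138 genes at 48 h from -0.00124 to 0.00801, and the log2 ratio of both organelle genomes from -0.0771 to 0.219 at 4 h, -0.0692 to 0.0968 at 48 h and -0.113 to 0.183 over time in induced seedlings. For orf133 the log2 fold change turned to 0.00629 at 48 h with the block by title number (repeated library as number 2), and without single replicates ran from -1.49 to 0.65 at 48 h, -0.99 to 0.0193 at 4 h and -0.32 to 2.08 over time in control seedlings. The low recovered total of control replicate 1, whose cause was not tested, and n = 2 at 48 h limit all comparisons with controls.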
